A study of Mus musculus with 4 samples.

Results

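Cytotoxic lymphocytes kill a target cell by releasing granules that hold perforin, which forms pores in the target membrane, and granzymes, serine proteases that enter the target and cleave its proteins. Natural killer (NK) cells carry this machinery together with germline-encoded receptors that sense the target, and the same genes are used by CD8+ T cells, NKT cells and some CD4+ T cells. The 10 genes described here were chosen by name and role, with no threshold on their values, from 25239 gene symbols listed in each library. Earlier results of these data were known when the 10 genes were chosen. They comprise 4 granzyme genes (*Gzma*, *Gzmb*, *Gzmc* and *Gzmk*), the perforin gene *Prf1*, the granule membrane protein gene *Nkg7*, and 4 receptor genes, *Klrb1c* (NK1.1), *Klrd1* (CD94), *Klrk1* (NKG2D) and *Ncr1* (NKp46).

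RNA-Seq was performed on tumor-infiltrating CD4+ T cells isolated from the lungs of C57BL/6 mice, with 2 WT-labelled libraries and 2 labelled CD4/ALK4-KO (CD4CreERT2+/-/Acvr1bfl/fl). In the latter mice tamoxifen activates a Cre recombinase driven by the *Cd4* promoter, which removes *Acvr1b*, the gene of the activin type I receptor ALK4, in cells that use this promoter. All mice were 8 to 10 week old males and received 500000 LLC-OVA cells intravenously, a Lewis lung carcinoma line expressing ovalbumin. Tamoxifen was given intraperitoneally at 75 mg/kg in 5 daily doses, and whether WT mice also received it is not stated in the sources used here. Tumors were taken after 18 to 22 days according to the labels and between days 16 and 20 according to the methods. The number of mice behind each library is not given in the sources used here.

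The libraries held 11823908 to 13943237 counts. The targeted gene *Acvr1b* had 426 and 342 counts in the WT-labelled libraries against 322 and 445 in the KO-labelled ones. Its log2 fold change was 0.16 ± 0.24 (SE; adjusted p = 0.66, edgeR), so the deletion was not seen in these counts and the groups are named by their labels, as WT-labelled and KO-labelled (CD4/ALK4-KO). Which exons are floxed is not given in the sources used here. The labelled cell type was checked against marker genes. Measured as CPM, counts per 1000000 of the TMM-adjusted library size, the markers of T cells summed to 276 and 252 in the WT-labelled libraries against 1319 and 1208 in the KO-labelled ones, with 7 of 7 tested higher. *Cd4* was at a log2 fold change of 2.62 (edgeR adjusted p = 2.8e-08). Markers of other cells were present in every library: those of CD8+ T cells (*Cd8a* and *Cd8b1*) summed to 47.8 and 43.6 CPM against 310 and 192 CPM, with 2 of 2 higher, and those of macrophages or monocytes to 5582 and 7105 CPM against 6526 and 5916 CPM, with 5 of 9 higher. The last sum was mostly *Lyz2* (4278 and 5687 against 4758 and 4227 CPM). Over all genes tested, 17.4% were higher and 15.4% lower. In such bulk samples, more cells of a type and more RNA per cell cannot be told apart.

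The promoters of most of these genes share a short sequence feature. RefSeq promoter sequence (GRCm38.p6) was found for 9 of the 10 genes, all but *Klrd1*, which was not searched. The 250 bases before the start were searched on both strands for TGTGGT, a core sequence bound by RUNX factors. It was found in 8 of the 9 genes, namely *Gzma*, *Gzmb*, *Gzmc*, *Klrb1c*, *Klrk1*, *Ncr1*, *Nkg7* and *Prf1*, whereas *Gzmk* had no match. Among 32536 promoter windows of the same length, 14.0% held TGTGGT. The *Gzmk* window (113180966 to 113181215) lies inside the annotated span of that gene (113171608 to 113225908, minus strand). So does the window of *Klrb1c*, a gene with a match (128788642 to 128788891, in a span of 128778485 to 128789215, minus strand). In neither gene was a start nearer the far end of the span searched. The *Nkg7* window holds 65 annotated exon bases. The letters AGGTGT, a core bound by T-box factors, were found in 4 of the 9 genes (*Gzma*, *Gzmk*, *Nkg7* and *Prf1*) and in 11.9% of all windows, and the ETS letters GGAAGT in 4 of 9 (*Gzmc*, *Gzmk*, *Klrb1c* and *Prf1*) and 19.8% of all windows. The STAT letters TTCNNNGAA were found in *Nkg7* alone, and in 7.04% of all windows. The motifs were picked after the values of the genes had been seen, and a match is a description of the letters and not a site.

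The windows of 2 granzyme genes and of 2 receptor genes are printed below in the direction of the gene, since they show this feature in genes that lie on 4 different chromosomes; capitals mark the RUNX letters and, in *Gzma*, also the T-box letters ACACCT on the opposite strand.
*Gzma* (chr13:113100982-113101231, minus strand): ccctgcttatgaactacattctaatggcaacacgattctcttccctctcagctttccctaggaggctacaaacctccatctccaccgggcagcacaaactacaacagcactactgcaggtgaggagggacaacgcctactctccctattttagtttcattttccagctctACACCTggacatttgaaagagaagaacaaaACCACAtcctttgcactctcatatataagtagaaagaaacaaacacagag
*Gzmb* (chr14:56262335-56262584, minus strand): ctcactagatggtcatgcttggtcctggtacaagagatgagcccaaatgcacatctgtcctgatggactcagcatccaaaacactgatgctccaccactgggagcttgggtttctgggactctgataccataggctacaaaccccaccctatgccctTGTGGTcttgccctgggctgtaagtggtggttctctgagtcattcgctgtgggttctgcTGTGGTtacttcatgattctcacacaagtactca
*Klrk1* (chr6:129623865-129624114, minus strand): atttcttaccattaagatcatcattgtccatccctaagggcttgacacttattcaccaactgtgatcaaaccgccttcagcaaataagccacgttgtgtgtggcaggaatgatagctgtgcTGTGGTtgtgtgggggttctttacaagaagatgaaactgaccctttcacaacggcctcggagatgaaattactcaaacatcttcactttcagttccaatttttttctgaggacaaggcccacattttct
*Ncr1* (chr7:4337474-4337723, plus strand): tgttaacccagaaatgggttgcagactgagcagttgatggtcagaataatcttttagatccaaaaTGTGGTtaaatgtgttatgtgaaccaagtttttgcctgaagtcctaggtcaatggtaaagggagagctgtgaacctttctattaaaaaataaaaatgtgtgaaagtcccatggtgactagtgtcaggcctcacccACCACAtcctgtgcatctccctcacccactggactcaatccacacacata

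In *Gzmb* the RUNX letters occurred at 93 to 88 and at 34 to 29 bases before the start. In *Ncr1*, for which RefSeq gives a further start nearby, they occurred at 185 to 180 and, on the opposite strand, at 50 to 45 bases before the start printed here.

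All 10 genes were higher in the KO-labelled libraries in edgeR's quasi-likelihood test (adjusted p under 0.05) on the TMM scale, and none was lower, whereas 9 of the 10 lay below 0 when the libraries were scaled to T cell genes, as did 97.9% of all genes tested. Of the 13919 genes tested, 17.4% were higher and 15.4% lower on the TMM scale. These shares are a description, as the 10 genes were chosen with earlier results of these data known. DESeq2 also called all 10 higher, and its shares over all genes are not given here. All 10 passed the filter on low counts. For each of the 10, both KO-labelled libraries lay above both labelled WT in CPM, which held for 32.7% of all genes tested. The median log2 fold change was 1.71 over the 10 genes and -0.0082 over all genes tested. Together, the 10 genes took 0.0195% and 0.0266% of all counts in the WT-labelled libraries against 0.0729% and 0.0792% in the KO-labelled ones.

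**Figure D1:**
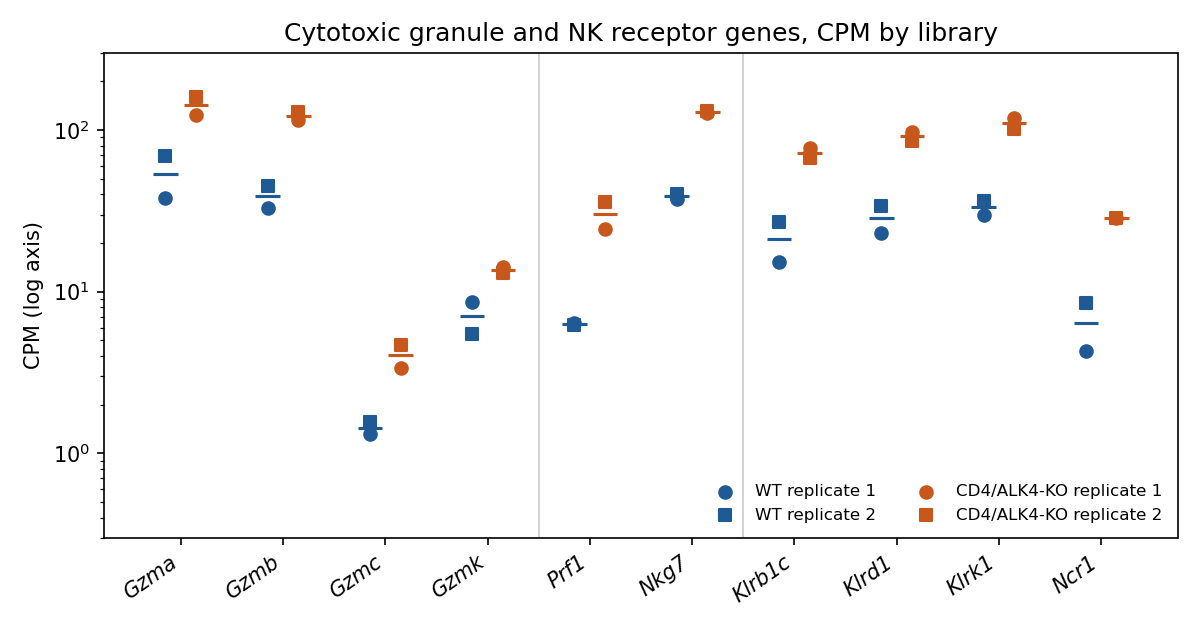
CPM (log axis) of each of the 10 genes in each of the 4 libraries; circles are replicate 1, squares replicate 2, and short lines the mean of each label. For every gene the orange points (CD4/ALK4-KO) lie above the blue points (WT), most narrowly for *Gzmk* and most widely for *Prf1*, while scaling to T cell genes puts 9 of the 10, and 97.9% of all genes, below 0.

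The 4 granzyme genes were all higher on the TMM scale and, like 97.9% of all genes, below 0 on the scale of T cell genes, where *Gzmc* did not pass the threshold. *Gzma*, which encodes a tryptase of cytotoxic granules and lies on chromosome 13 (113093825 to 113100981, minus strand, GRCm38), had 38.0 and 68.9 CPM in the WT-labelled libraries against 125 and 161 CPM in the KO-labelled ones. The groups did not overlap, but WT replicate 2 was well above WT replicate 1. The log2 fold change was 1.42 ± 0.25 (SE; adjusted p = 0.00021), or 2.67-fold, and it ran from 1.04 without WT replicate 1 to 1.90 without WT replicate 2.

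*Gzmb* encodes the granzyme that cleaves caspases and starts apoptosis in the target (chromosome 14, 56258838 to 56262260, minus strand). It had 33.1 and 44.9 CPM in the WT-labelled libraries against 115 and 129 CPM in the KO-labelled ones. The replicates lay closer together than for *Gzma*, and the lowest KO-labelled library was 2.57 times the highest labelled WT. Its log2 fold change was 1.65 ± 0.23 (SE; adjusted p = 8.6e-06).

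*Gzmk*, a neighbour of *Gzma* on chromosome 13 (113171608 to 113225908, minus strand) that encodes a further tryptase, showed the smallest difference of the 10 genes. It had 8.61 and 5.47 CPM in the WT-labelled libraries against 14.2 and 13.0 CPM in the KO-labelled ones, a log2 fold change of 0.95 ± 0.31 (SE; adjusted p = 0.023). In contrast to *Gzma* and *Gzmb*, WT replicate 1 was the higher of the WT-labelled libraries. Without WT replicate 2 the log2 fold change was 0.65 and no longer past the threshold (adjusted p = 0.35, where the other alternatives on a scale of all genes gave 0.0081 to 0.049).

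*Gzmc*, a neighbour of *Gzmb* on chromosome 14 (56231441 to 56234656, minus strand), was the least abundant per exon length. It had 18 and 21 counts in the WT-labelled libraries against 40 and 58 in the KO-labelled ones, or 1.31 and 1.55 against 3.36 and 4.70 CPM. The groups did not overlap, and the log2 fold change was 1.49 ± 0.50 (SE; adjusted p = 0.026). The call was lost without either WT-labelled library or without KO replicate 2, as the adjusted p was 0.25 without WT replicate 1, 0.14 without WT replicate 2, 0.079 without KO replicate 2 and 0.055 with the replicate number as a block, against 0.0038 to 0.25 over all alternatives on a scale of all genes. At these counts the size of the difference is known poorly.

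*Prf1*, the gene encoding perforin (chromosome 10, 61297833 to 61304680, plus strand), had the largest fold change of the 10. It had 6.42 and 6.21 CPM in the WT-labelled libraries against 24.5 and 35.9 CPM in the KO-labelled ones. The WT-labelled libraries were nearly equal, and the lowest KO-labelled library was 3.82 times the highest of them. The log2 fold change was 2.26 ± 0.29 (SE; adjusted p = 3.8e-06), or 4.78-fold, with 1.95 and 2.54 as its extremes over the 4 fits with a library left out.

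*Nkg7* encodes a membrane protein of cytotoxic granules that takes part in their release (chromosome 7, 43437073 to 43438249, plus strand). Its replicates lay close together under both labels, with 37.6 and 40.5 CPM in the WT-labelled libraries against 128 and 131 CPM in the KO-labelled ones. The log2 fold change was 1.73 ± 0.22 (SE; adjusted p = 2.6e-06), and leaving out any library moved it only between 1.67 and 1.78.

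Of the receptor genes, 3 lie in the NK gene complex on chromosome 6. *Klrb1c* (128778485 to 128789215, minus strand) encodes NK1.1, the antigen by which NK and NKT cells are recognised in C57BL/6 mice. It had 15.3 and 27.1 CPM in the WT-labelled libraries against 77.3 and 66.7 CPM in the KO-labelled ones. As for *Gzma*, WT replicate 2 was clearly above WT replicate 1, while both lay under the other group. The log2 fold change was 1.76 ± 0.26 (SE; adjusted p = 1.5e-05), from 1.40 without WT replicate 1 to 2.22 without WT replicate 2. Of the 75-base stretches of its transcripts, 13.2% also occurred in *Klrb1a*, *Klrb1b* or the overlapping gene *Gm44511*, so that part of its reads may not be placed in 1 gene. The other 9 genes shared no such stretch with another gene.

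*Klrd1* (129591782 to 129598775, plus strand) encodes CD94, which pairs with proteins of the NKG2 family to read the class Ib molecule Qa-1. It had 23 and 34 CPM in the WT-labelled libraries against 97.8 and 85.2 CPM in the KO-labelled ones, a log2 fold change of 1.68 ± 0.24 (SE; adjusted p = 1.1e-05). *Klrk1* (129610323 to 129623864, minus strand) encodes NKG2D, the activating receptor for stress-induced ligands. It had 29.9 and 36.5 CPM against 119 and 102 CPM, a log2 fold change of 1.73 ± 0.22 (SE; adjusted p = 4.0e-06). For both genes WT replicate 1 was the lowest and KO replicate 1 the highest library.

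*Ncr1* on chromosome 7 (4337724 to 4345164, plus strand) encodes NKp46, a receptor found on NK cells and some innate lymphoid cells and on few T cells. It had 59 and 115 counts in the WT-labelled libraries against 339 and 353 in the KO-labelled ones, or 4.31 and 8.50 CPM against 28.5 and 28.6 CPM. The KO-labelled libraries were nearly equal, whereas the WT-labelled ones differed widely. The log2 fold change was 2.15 ± 0.31 (SE; adjusted p = 1.5e-05), from 1.74 without WT replicate 1 to 2.72 without WT replicate 2.

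Levels of different genes were compared per exon length, as RPKM (CPM per kilobase of the exons of all transcripts). In the WT-labelled libraries the order was *Gzma* (53.1 ± 21.7 RPKM, SD, n = 2), *Nkg7* (42.7 ± 2.27), *Gzmb* (27.2 ± 5.82), *Klrd1* (22.2 ± 6.08), *Klrb1c* (7.17 ± 2.82), *Gzmk* (5.07 ± 1.60), *Klrk1* (4.62 ± 0.650), *Ncr1* (4.16 ± 1.93), *Prf1* (2.44 ± 0.0579) and *Gzmc* (1.60 ± 0.189). Neighbours in this order overlapped between libraries for *Gzma* and *Nkg7*, for *Gzmb* and *Klrd1*, and along the run from *Klrb1c* to *Ncr1*. In the KO-labelled libraries, *Nkg7* (142 ± 2.58 RPKM) and *Gzma* (142 ± 25.6) led with overlapping libraries, followed by *Gzmb* (85.2 ± 6.89), *Klrd1* (71.4 ± 6.95) and *Klrb1c* (24.3 ± 2.52). There, *Ncr1* (18.5 ± 0.0512 RPKM) stood above *Klrk1* (15.4 ± 1.62) and *Prf1* (11.7 ± 3.11), the last of which overlapped with *Gzmk* (9.80 ± 0.589), and *Gzmc* (4.51 ± 1.06) was again the lowest. The long exons annotated for *Klrk1* (7183 bases) lower its value on this scale.

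The make-up of the counts within the 10 genes was examined in each library. *Gzmb* varied little and held 16.8%, 16.4%, 15.8% and 17.1% of the counts of the 10 genes in WT replicates 1 and 2 and KO replicates 1 and 2. *Gzmk* departed from this, with 4.36% in WT replicate 1 against 1.72% to 2.00% in the other 3 libraries. *Ncr1* held 2.18% and 3.11% in the WT-labelled libraries against 3.89% and 3.77% in the KO-labelled ones, while *Gzma* ranged from 17.0% to 25.2% with overlapping groups.

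**Figure D2:**
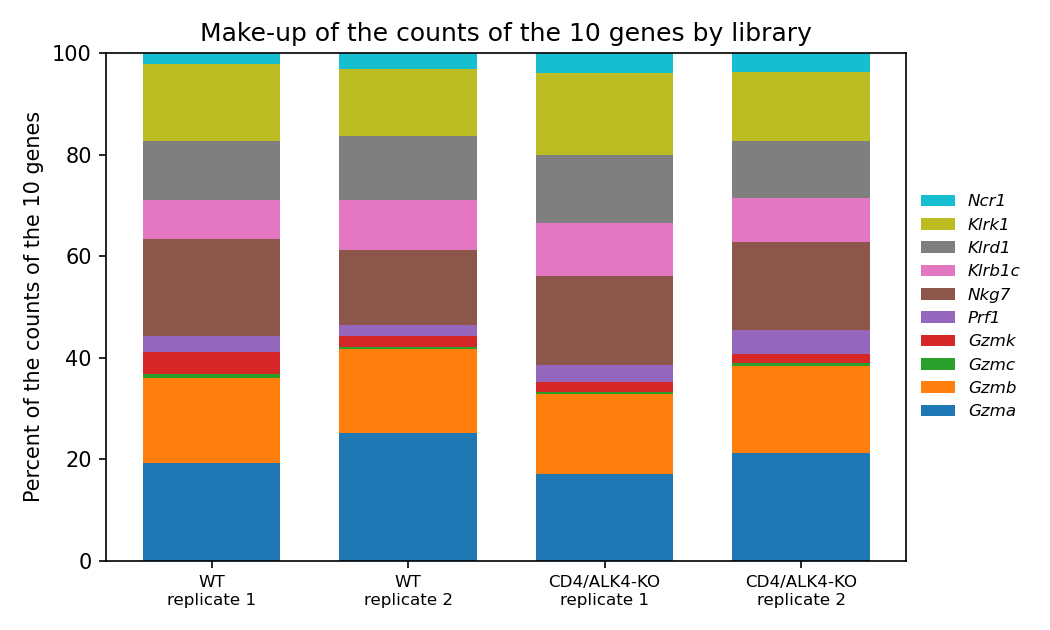
Percent of the summed counts of the 10 genes held by each gene, stacked to 100% for each of the 4 libraries. *Gzmb* holds 15.8% to 17.1% of the counts in every library, and *Gzmk* (red) is widest in WT replicate 1 at 4.36%.

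The 10 genes were also set against the markers of T cells, which were higher as well. The 6 T cell genes *Cd3d*, *Cd3e*, *Cd3g*, *Cd5*, *Cd6* and *Lat* had log2 fold changes of 1.97 to 2.92 with a median of 2.42, against 0.95 to 2.26 for the 10 genes. Per 100 counts of these T cell genes, *Gzma* had 16.1 and 33.4 counts in the WT-labelled libraries against 11.4 and 15.6 in the KO-labelled ones. *Nkg7* had 15.9 and 19.7 against 11.7 and 12.7, and *Gzmk* had 3.64 and 2.66 against 1.30 and 1.27. Per T cell gene count, 7 of the 10 genes (these 3, *Gzmb*, *Gzmc*, *Klrd1* and *Klrk1*) were below WT in both KO-labelled libraries without overlap, which held for 95.2% of all genes tested. *Klrb1c* had 6.48 and 13.2 against 7.09 and 6.48, *Prf1* 2.72 and 3.01 against 2.25 and 3.48, and *Ncr1* 1.82 and 4.13 against 2.61 and 2.77, and for these the groups overlapped.

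When all libraries were scaled to the 6 T cell genes in place of TMM, all fold changes shifted by a median of -2.26 on the log2 scale. On this T cell scale 9 of the 10 genes were below 0 and 6 were lower at an adjusted p under 0.05 (edgeR), as were 12906 of the 13919 genes (92.7%). *Gzmk* was at -1.30 (adjusted p = 0.00035), *Gzma* at -0.87 (adjusted p = 0.0011) and *Gzmb* at -0.63 (adjusted p = 0.018). *Prf1* was at 0.0017 (adjusted p = 0.996) and *Ncr1* at -0.13 (adjusted p = 0.70), and neither passed the threshold.

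**Figure D3:**
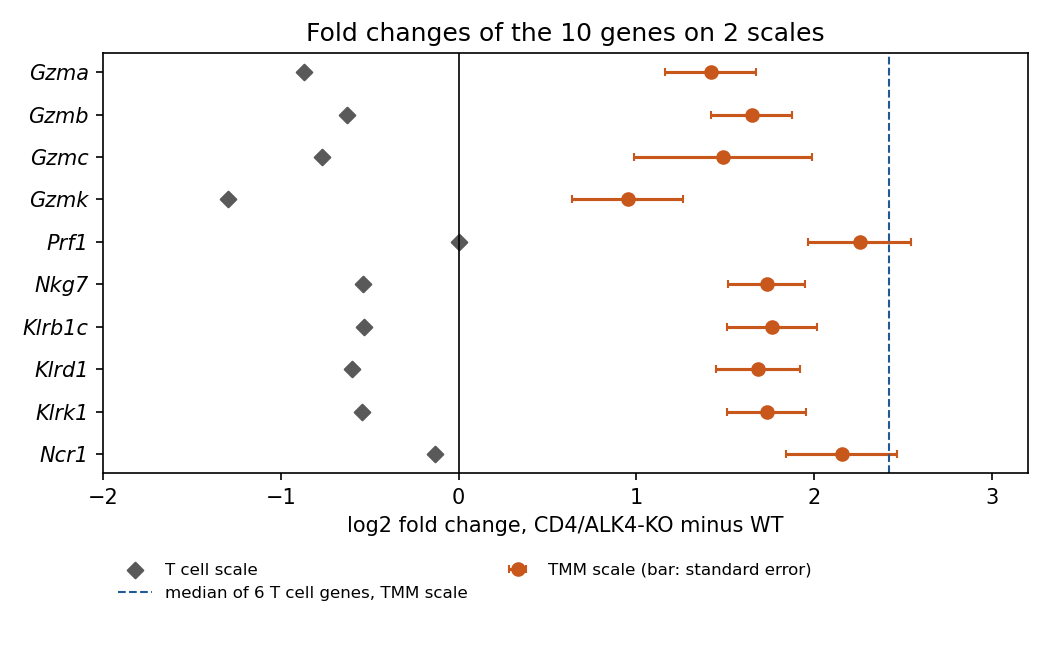
Log2 fold change (CD4/ALK4-KO minus WT) of the 10 genes on the TMM scale (orange, bars are standard errors) and on the T cell scale (grey diamonds), with the median of the 6 T cell genes at 2.42 on the TMM scale as a dashed line. All 10 lie right of 0 on the TMM scale, and on the T cell scale 9 lie left of 0 and *Prf1* at 0.0017.

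The other genes of the pathway were taken from lists by role, also chosen with earlier results of these data known. Over 10 such lists, 91 genes were tested, of which 62 were higher, 2 lower and 27 not past the threshold, with a median log2 fold change of 1.31 on the TMM scale, whereas on the T cell scale 1 was higher and 50 lower, where 0.302% of all genes were higher and 92.7% lower. The values that follow are on the TMM scale, on which 17.4% of all genes were higher and 15.4% lower. Of the further granzymes, *Gzmm* had 9 and 14 counts in the WT-labelled libraries against 47 and 17 in the KO-labelled ones. Its log2 fold change of 1.64 (adjusted p = 0.051, edgeR) was not past the threshold, though it was with no filter on low counts (1.64, adjusted p = 0.044, edgeR). It was 2.21 without KO replicate 2 and 0.73 without KO replicate 1. *Gzmd*, *Gzme* and *Gzmf* had 4 or fewer counts in every library. *Gzmg* and *Gzmn* had 0 counts in every library, which allows at most 0.219 to 0.252 CPM each, as 3 counts per library (counting error only).

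Among 9 genes of granule cargo, maturation and inhibitors, 2 were higher and none lower (median log2 fold change 0.20), a share near the 17.4% of all genes. These were *Ctsw*, which encodes the cathepsin of cytotoxic lymphocytes and had 19.5 and 18.7 CPM in the WT-labelled libraries against 81.2 and 103 CPM, and *Cst7*, which encodes the inhibitor cystatin F and had 11.4 and 11.5 against 41.6 and 40.7 CPM. Their log2 fold changes were 2.27 (adjusted p = 1.8e-07) and 1.84 (adjusted p = 7.8e-06). In contrast, *Srgn* and *Ctsc* had log2 fold changes of 0.21 (adjusted p = 0.47) and 0.21 (adjusted p = 0.48, edgeR). *Srgn* encodes the granule proteoglycan serglycin, and *Ctsc* the protease that activates granzymes. Myeloid cells also use both genes, and the part of myeloid cells in the values here and below was not tested.

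Of 9 genes for granule exocytosis, 7 were higher and none lower (median 1.01). *Rab27a* (log2 fold change 1.90, adjusted p = 1.7e-06) and its effector *Sytl2* (1.96, adjusted p = 5.1e-06) serve granule docking, and *Unc13d* (1.76, adjusted p = 2.5e-05), encoding Munc13-4, granule priming. The lysosomal trafficking regulator gene *Lyst* was at 1.28 (adjusted p = 0.00026). *Vamp8*, encoding a vesicle SNARE, had 151 and 145 CPM in the WT-labelled libraries against 107 and 116 CPM in the KO-labelled ones, a log2 fold change of -0.40 that was not past the threshold (adjusted p = 0.15).

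Among 8 genes of death ligands and effector cytokines, 6 were higher and none lower (median 1.37). *Fasl*, encoding Fas ligand, was at 1.40 on the log2 scale (adjusted p = 0.00080), *Tnfsf10*, encoding TRAIL, at 1.92 (adjusted p = 5.6e-06) and *Ifng*, encoding interferon-γ, at 1.63 (adjusted p = 7.5e-05). *Ccl5*, a chemokine gene of memory T and NK cells, had 76.2 and 71.3 CPM against 106 and 186 CPM (log2 fold change 0.98, adjusted p = 0.0033), which did not pass the threshold without WT replicate 2 (0.93) and was 0.51 without KO replicate 2. *Ccl3*, a chemokine gene also used by macrophages, was at -0.18 (adjusted p = 0.57).

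The other lectin-like receptor genes of the NK gene complex gave 18 of 20 higher and none lower (median log2 fold change 1.92). Among the 18, the groups overlapped for *Klra17* (44 and 76 against 167 and 69 counts). *Klra5*, *Klra8*, *Klra10* and *Klrc3* had 10 or fewer counts in each WT-labelled library. These genes are named here for these limits alone. *Klrc1*, which encodes NKG2A, the inhibitory partner of CD94, had 10.4 and 13.2 CPM in the WT-labelled libraries against 48.6 and 32.8 CPM in the KO-labelled ones. Its log2 fold change was 1.79 (adjusted p = 2.6e-05), close to the 1.68 of its partner *Klrd1*. *Klri2* was at 1.98 (adjusted p = 4.7e-06), and the Ly49 genes *Klra7* and *Klra9* were at 2.10 (adjusted p = 1.6e-05) and 1.96 (adjusted p = 3.8e-05). *Klrb1b*, encoding an inhibitory relative of NK1.1 for the ligand Clec2d, was also higher, at 0.93 (adjusted p = 0.0026), though not past the threshold without WT replicate 1 (0.81). *Klra2*, a Ly49 gene that myeloid cells also use, had 53.7 and 78.8 against 86.8 and 76.1 CPM with overlapping groups (0.30, adjusted p = 0.34). The other gene not past the threshold was *Klrh1*, with 17, 0, 75 and 15 counts. The Ly49 genes are close copies of each other, so their single counts are uncertain.

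**Figure D4:**
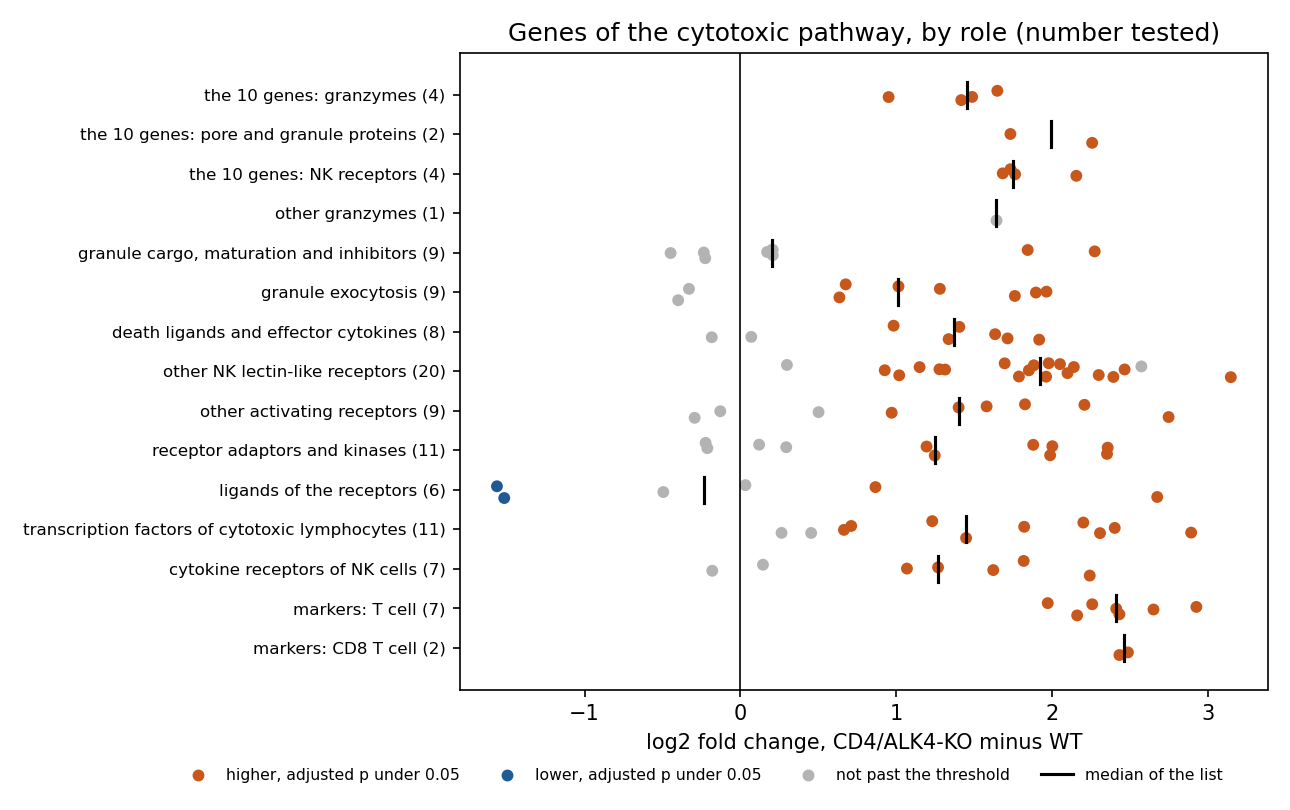
Log2 fold change (CD4/ALK4-KO minus WT) of each tested gene, by role, with the number tested in brackets; orange points were higher and blue points lower at an adjusted p under 0.05, grey points did not pass, and black lines are list medians. The 10 genes (top 3 rows) lie between 0.95 and 2.26, where the T cell markers have a median of 2.41, 7 of 9 genes of granule cargo are grey, and all values are on the TMM scale (on the T cell scale 6 of the 10 genes, 50 of the 91 others and 92.7% of all genes are lower).

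The adaptors through which the receptors signal were not all higher. *Hcst*, encoding DAP10, the adaptor of NKG2D, had 17.1 and 16.1 CPM in the WT-labelled libraries against 32.8 and 46.2 CPM in the KO-labelled ones, a log2 fold change of 1.25 (adjusted p = 0.00063). *Cd247*, encoding the CD3 zeta chain that serves the T cell receptor and NKp46, was at 2.35 (adjusted p = 6.8e-08). *Tyrobp*, encoding DAP12, and *Fcer1g*, encoding the Fc receptor gamma chain, both abundant in myeloid cells, were at -0.22 (adjusted p = 0.51) and -0.21 (adjusted p = 0.49). *Tyrobp* had 351 and 399 CPM against 246 and 396 CPM, and was at 0.11 without KO replicate 1 and at -0.61, past the threshold, without KO replicate 2. Of the 11 adaptor and kinase genes tested, 7 were higher and none lower.

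The ligands of the receptors were divided, with 2 of 6 genes higher and 2 lower (median -0.23). The 6 include *Clec2d*, the gene of the *Klrb1b* ligand (log2 fold change 0.032, adjusted p = 0.94, edgeR). The NKG2D ligand genes *Raet1d* and *Raet1e* were lower in the KO-labelled libraries. *Raet1d* had 68 and 67 counts in the WT-labelled libraries against 16 and 26 in the KO-labelled ones (log2 fold change -1.52, adjusted p = 0.016), and *Raet1e* had 88 and 75 against 23 and 26 counts (-1.56, adjusted p = 0.0077). Neither passed the threshold without WT replicate 1 (-1.52 and -1.46) or WT replicate 2 (-1.53 and -1.67). Each of these fits holds 1 WT-labelled library, and the cause of the lost calls was not tested. The higher genes were *H60b*, a further NKG2D ligand gene with only 0 and 4 against 13 and 11 counts (2.67, adjusted p = 0.040; 1.70 without WT replicate 1 and not past the threshold without either WT-labelled library), and *H2-T23*, encoding Qa-1, the ligand of CD94 and NKG2A, with 179 and 144 against 274 and 315 CPM (0.87, adjusted p = 0.0046; 0.71 and not past the threshold without WT replicate 2). The epithelial or tumour marker list was split, with 2 of 5 higher and 3 lower. *Krt8*, *Krt18* and *Sftpc* were lower, whereas *Epcam* (2.31, adjusted p = 0.0022) and *Cdh1* (1.77, adjusted p = 0.00011) were higher. The list summed to 441 and 420 CPM in the WT-labelled libraries against 223 and 234 CPM in the KO-labelled ones, a sum dominated by the 3 lower genes. The part of epithelial or tumour cells in the lower ligand genes was not tested.

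Transcription factor genes of cytotoxic lymphocytes were higher in 9 of 11 cases (median 1.45). The T-box factor genes *Eomes* and *Tbx21* were both higher at low levels: *Eomes* had 26 and 25 counts in the WT-labelled libraries against 68 and 159 in the KO-labelled ones (2.31, adjusted p = 0.00028; 1.60 without KO replicate 2), and *Tbx21* had 37 and 24 against 71 and 122 (1.82, adjusted p = 0.0019). *Runx3*, encoding the RUNX factor of CD8+ T and NK cells, had 9.56 and 7.47 against 14.4 and 25.6 CPM (1.23, adjusted p = 0.0040; 1.06 and not past the threshold without WT replicate 2, and 0.75 without KO replicate 2). The lymphocyte factor genes *Ets1* (2.20, adjusted p = 1.4e-07) and *Ikzf3* (2.89, adjusted p = 2.5e-08) were higher too. *Hcst*, *Tbx21*, *Runx3* and *H60b* were named after their values had been seen.

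Receptors for the cytokines that act on NK cells were higher in 5 of 7 cases (median 1.27). *Il2rb*, encoding the beta chain shared by the receptors for IL-2 and IL-15, had 36.8 and 29.9 CPM in the WT-labelled libraries against 114 and 201 CPM in the KO-labelled ones (2.24, adjusted p = 9.2e-07). *Il18rap* had 154 and 175 against 194 and 171 CPM (0.14, adjusted p = 0.65). Of 9 other activating receptor genes, 6 were higher, among them *Cd226* (1.83, adjusted p = 4.3e-06), which encodes DNAM-1, while the Fc receptor gene *Fcgr3*, used by NK and myeloid cells, was at -0.13 (adjusted p = 0.69). All adjusted p-values above are from edgeR.

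Of the markers of other cells that could carry the 10 genes, some differed between the labels and others did not. Their values are on the TMM scale, on which 17.4% of all genes were higher and 15.4% lower. Of 10 tested NK cell markers outside the 10 genes, 7 were higher, and their sum, dominated by *Tyrobp* and *Fcer1g*, was 784 and 892 CPM in the WT-labelled libraries against 755 and 958 CPM in the KO-labelled ones. *Klra4* was at or near 0, with 0, 0, 0 and 2 counts. *Cd8a* had 26.6 and 23.7 against 168 and 104 CPM (log2 fold change 2.43, adjusted p = 1.8e-07), a larger fold than any of the 10 genes. *Zbtb16*, the factor of NKT cells, had 18 and 43 against 75 and 42 counts and did not pass the threshold, and its list of NKT cell or innate lymphoid cell genes had 4 of 8 higher and 1 lower (1224 and 904 against 1457 and 1048 CPM). Mast cells and basophils, which can also make granzyme B, had 2 of 8 markers higher (27.7 and 44.4 against 70.6 and 52.8 CPM). B cell markers, of which 6 of 6 were higher, summed to 65.5 and 51.5 CPM against 170 and 358 CPM, and dendritic cell markers had 4 of 6 higher and 1 lower. The part of each of these cells in the levels of the 10 genes was not tested, and CD4+ T cells, CD8+ T cells and NK cells cannot be told apart in these libraries.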

How the data were processed

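Single-end reads of 75 bp from TruSeq RNA v2 libraries (a kit that does not mark strand) were aligned by the authors to mm10 with HISAT2 and counted per gene with htseq-count (intersection-nonempty), and the deposited values are raw counts per gene symbol. Tool versions, annotation and strand option are not given in the sources used here. Reads shared by genes and uncounted reads were not analysed here.

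From the counts, edgeR 4.0.16 (R 4.3.3) was used with filterByExpr (13919 genes), TMM scaling and robust quasi-likelihood dispersions. The model held genotype alone, and p-values were adjusted over all genes by Benjamini-Hochberg. Each SE was obtained from the log2 fold change and the square root of its F statistic. The p-values measure the spread between 2 libraries per label, which differed by more than sampling noise (chi-square per degree of freedom 17.1 and 30.5). Gene positions are from GENCODE M21 (GRCm38, the build of mm10) and promoters from RefSeq.

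The 10 genes and all lists were chosen with earlier results of these data known. Of each other list, genes were named by the highest CPM (up to 5) or the largest non-overlapping change among genes with an adjusted p under 0.05 and a mean of at least 50 counts (up to 4), with exceptions stated. The alternatives were other scalings (size factors by RLE, upper quartile, 6 T cell genes), other filters (none, or 10 counts in every library), a replicate block, DESeq2 1.42.0 and each library left out.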

Additional observations from a re-analysis of the deposited data

How the results depend on the processing

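All 10 genes stayed higher with other scalings over all genes, other filters and DESeq2. With size factors by RLE, 2453 of the 13919 genes were higher and 2089 lower, and with upper-quartile scaling 2149 and 2428. Without a filter on low counts, 2506 of 18947 genes were higher and 2232 lower. The counts of all genes for the other filter and DESeq2 are not given here. Scaling to the 6 T cell genes called 0 of the 10 higher and 6 lower, 42 of all genes higher and 12906 lower, and 1 of the other pathway genes higher and 50 lower, by construction relative to genes that were themselves higher. Single genes were followed over the alternatives for 51 genes only. Among these, the log2 fold changes that turned negative on the T cell scale were those of *Gzma* (-0.87), *Gzmb* (-0.63), *Gzmc* (-0.77), *Gzmk* (-1.30), *Nkg7* (-0.54), *Klrb1c* (-0.53), *Klrd1* (-0.60), *Klrk1* (-0.54), *Ncr1* (-0.13), *Gzmm* (-0.64), *Srgn* (-2.06), *Ctsc* (-2.07), *Cst7* (-0.42), *Rab27a* (-0.37), *Sytl2* (-0.32), *Unc13d* (-0.49), *Lyst* (-1.01), *Fasl* (-0.87), *Tnfsf10* (-0.37), *Ifng* (-0.64), *Ccl5* (-1.27), *Klrc1* (-0.50), *Klri2* (-0.30), *Klra9* (-0.33), *Klra7* (-0.18), *Klra2* (-1.99), *Klrb1b* (-1.35), *Cd226* (-0.45), *Hcst* (-1.01), *H2-T23* (-1.39), *Tbx21* (-0.42), *Runx3* (-1.01), *Ets1* (-0.070), *Il2rb* (-0.0042), *Il18rap* (-2.13) and *Acvr1b* (-2.09). With 1 library left out, 8 to 10 of the 10 genes were higher and 0 lower, 1103 to 2923 of all genes were higher and 754 to 2618 lower, and 46 to 63 of the other pathway genes were higher and 0 to 4 lower. The lowest counts of all genes came without WT replicate 1, and the cause was not tested. The sign changed in 3 cases of genes not past the threshold: *Ccl3* was between -0.46 and 0.075, *Tyrobp* between -0.61 and 0.11, and *Acvr1b* between -0.065 and 0.39 as each library was left out. The labels do not say that equal replicate numbers share anything, and deviations of same-numbered libraries correlated at -0.24. With the replicate number as a block, 9 of the 10 genes were higher and 0 lower, with 1768 of all genes higher and 1444 lower, and 54 of the other pathway genes higher and 2 lower. A block with crossed numbers, chosen after seeing the data, gave 10 and 0 of the 10 genes, 3118 and 3037 of all genes, and 65 and 4 of the other pathway genes. *H60b* kept its call only with size factors by RLE, upper-quartile scaling and without KO replicate 2. Low counts limit *Gzmc*, *Gzmm*, *H60b*, *Klra5*, *Klra8*, *Klra10* and *Klrc3* most.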

Other observations

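Genes whose profile over the 4 libraries was most like that of *Gzmb* or *Klrb1c* were listed by the Euclidean distance of centred log2(CPM + 0.5) values, searching the 10459 other genes that averaged 100 counts or more. With 4 libraries that fall into 2 labels many genes share such a profile, so the lists are a description. The nearest to *Gzmb* were *Ino80d* (distance 0.0706), *Dip2b* (0.0891), *Nrip1* (0.0910), *Kit* (0.110) and *Ifng* (0.122). *Ifng*, encoding interferon-γ, had 118 and 149 counts in the WT-labelled libraries against 357 and 382 counts in the KO-labelled ones. The nearest to *Klrb1c* were *Dennd11* (0.163), the Ly49 gene *Klra9* (0.172), *Pecam1* (0.183), *Mfsd4a* (0.191) and *Gm1966* (0.197). *Klra9* had 4.82 and 9.02 CPM against 28.1 and 25.8 CPM, with WT replicate 2 above WT replicate 1 as for *Klrb1c*.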
